A study of Mus musculus with 9 samples.

Results

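Clones 10 and 11 of the mouse embryonic stem cell line E14 were set against clones 8, 14 and 17 of the same line, 5 of the 9 clones of the series. The 2 sets were selected on the similarity of their own expression profiles and then fixed by clone name, so the values that separate them also chose them. All differences are therefore given as a description, with no test. Over the 13378 genes whose level averaged 1 or more CPM (estimated counts, scaled to equal effective library sizes) in the 9 clones, Spearman's rho was 0.9898 between clones 10 and 11. It was 0.991 to 0.9936 among clones 8, 14 and 17, and 0.9616 to 0.9755 between a clone of one set and a clone of the other. The closest clone outside the sets reached 0.9784 with clones 10 or 11 and 0.9796 with clones 8, 14 or 17. The rest of the series, clones 1, 4, 6 and 13, is used only to show on which side the remaining clones lie.

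Each clone came from the bulk E14 line and was sequenced as 1 stranded mRNA library. All clones grew under the same conditions, with foetal bovine serum and leukaemia inhibitory factor (LIF) on gelatin, and no treatment or genetic change is stated for any of them. They had been picked because their lipid droplets differed in size, but the sources used here give no droplet size, passage number or picking date for a clone. A set is thus 2 or 3 single clones with 1 library each, and the spread between clones cannot be told apart from the spread between libraries. The 5 libraries held 13764275 to 14273223 estimated counts, so that a gene without any count may still lie at up to 0.21 to 0.219 CPM (3 counts). Markers of embryonic stem cells were present in all 5: 7 of 7 listed markers passed the filter on low values, and their summed level was 3453 to 3824 CPM in clones 10 and 11, against 4731 to 4971 CPM in clones 8, 14 and 17.

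Mouse embryonic stem cells in serum and LIF hold a naive state that rests on a network of transcription factors, and leave it by way of a formative state before they take up germ layer fates. Such cultures are mixtures in which some cells already carry genes of primitive streak, mesoderm or simple epithelium. The line is also known to gain whole chromosomes in culture, so genes of chromosomes 8 and 11, on which these clones differ as a whole, are described apart from all other genes. A gene was called higher or lower in clones 10 and 11 where each of the 6 differences between a clone of the first set and a clone of the second was at least 1 log2 unit in that direction, and the smallest of the 6 is its margin. The gene lists and the rule for naming genes are given under the processing of the data.

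Outside chromosomes 8 and 11, some genes of the extracellular matrix, the actin cytoskeleton, simple epithelium, the primitive streak and the interferon response were called higher in clones 10 and 11, and a pair of naive pluripotency genes was called lower. Most members of each of these lists were not called. Of 11589 genes tested there, 314 were called higher (2.71%) and 106 lower (0.915%). Without a minimum size, all 6 clone pairs pointed up in 2802 genes (24.2%) and down in 3296 (28.4%). The genes called higher were nearly all protein-coding (311 of 314), whereas 40 of the 106 called lower were pseudogenes. Because the mean over all 9 clones admitted a gene, a gene expressed in 1 set alone had to differ to be counted. With the filter set on clones 1, 4, 6 and 13, which belong to neither set, 280 genes were called higher and 96 lower. Without clone 10, which left 3 clone pairs, the counts were 514 and 232, and the lower count was 165 without clone 11 and 182 without clone 14.

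The largest margins among named protein-coding genes outside chromosomes 8 and 11 included those of Gbp2b, Gbp2, Csf1, Tnc, Usp26, Cav1, Col1a2, Psmb8, Prss23, Col3a1, Gbp3, T, Thbs1 and Krt18. Csf1, the macrophage colony-stimulating factor, reached 9.78 and 14.8 CPM in clones 10 and 11, against 0.0714, 0.219 and 0.216 CPM in clones 8, 14 and 17, the last values resting on 3 counts or fewer. Its closest pair, clone 10 over clone 14, gave a ratio of 44.7, with an exact 95% interval of 15 to 220 that covers counting error only. Cav1, caveolin 1 of the plasma membrane, measured 8.33 and 8.88 CPM in clones 10 and 11, against 0.0714, 0.292 and 0 CPM in clones 8, 14 and 17. Thbs1, the matrix glycoprotein thrombospondin 1, rested on far more counts, with 141 and 178 CPM in clones 10 and 11, against 7.57, 11 and 6.83 CPM in clones 8, 14 and 17. For Thbs1 the closest pair gave a ratio of 12.8 (interval 10.9 to 15.2). Usp26, an X-linked deubiquitinase, measured 25.4 and 47.8 CPM in clones 10 and 11, against 1.14, 0.438 and 0.431 CPM in clones 8, 14 and 17. The other 4 clones lay at 34.5 to 39.6 CPM, on the side of clones 10 and 11. Prss23, a secreted serine protease, measured 15.8 and 12.1 CPM in clones 10 and 11, against 0.5, 0.656 and 0.575 CPM in clones 8, 14 and 17. Here the other 4 clones, at 0.698 to 1.52 CPM, lay on the side of clones 8, 14 and 17.

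**Figure D1:**
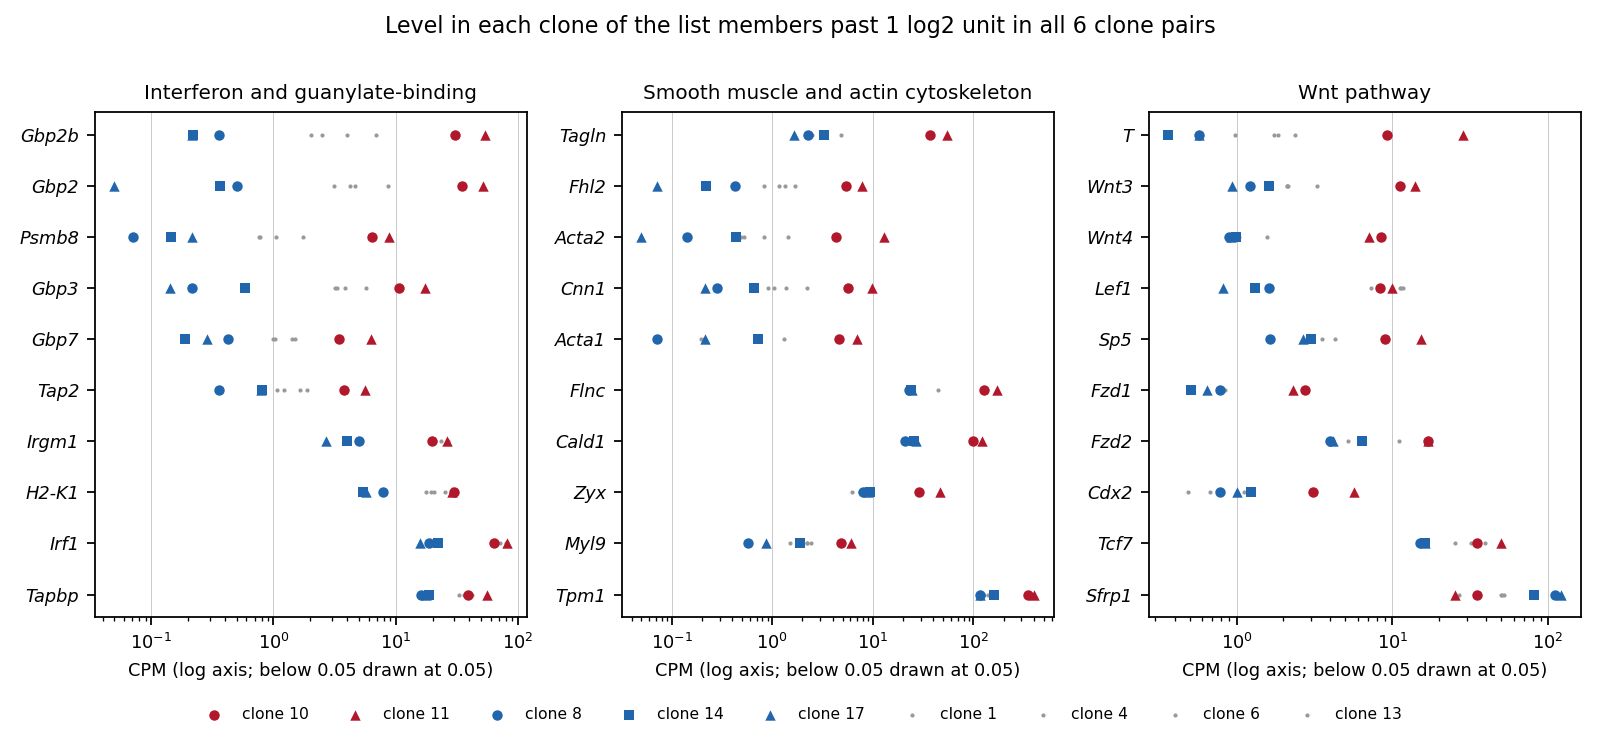
Level of each called member of the interferon, the smooth muscle and actin, and the Wnt list in every clone, in CPM on a log axis. Red points are clones 10 and 11, blue points clones 8, 14 and 17, and grey points clones 1, 4, 6 and 13; red and blue do not overlap in any row, since that is how the genes were called, and Sfrp1 is the only row with red on the left.

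The interferon list gave the largest margins. Guanylate-binding proteins are GTPases made in response to interferon that attack membranes of intracellular pathogens, and the immunoproteasome, the TAP transporter and tapasin cut peptides and load them onto class I molecules such as H2-K1. Of 34 members that passed the filter, 10 were called higher and none lower: Gbp2b, Gbp2, Gbp3, Gbp7 and Irgm1 among the effectors, the transcription factor gene Irf1, and Psmb8, Tap2, H2-K1 and Tapbp of antigen presentation. Irgm1 and Irf1 lie on chromosome 11. By role, 8 of 8 antigen presentation genes were higher in all 6 pairs, 8 of 16 effectors were higher and 3 lower, and 6 of 10 transducers were higher and 1 lower, beside 24.2% higher and 28.4% lower of all genes outside chromosomes 8 and 11. Outside chromosomes 8 and 11, 8 of 29 members were called higher, beside 2.71% of all genes there. Their median difference was 0.58 on the log2 scale, beside −0.03 for all genes there. Gbp2b reached 30.6 and 53.8 CPM in clones 10 and 11, against 0.357, 0.219 and 0.216 CPM in clones 8, 14 and 17. Gbp2, the neighbouring gene, reached 34.9 and 51.2 CPM in clones 10 and 11, against 0.5, 0.365 and 0 CPM in clones 8, 14 and 17. Both genes lay between these extremes in the other 4 clones, with 2.02 to 6.86 CPM for Gbp2b and 3.14 to 8.69 CPM for Gbp2. Against the median of the 4, Irf1, Irgm1, Tapbp and H2-K1 stood at 0.054, 0.047, 0.314 and 0.55 log2 units in clones 10 and 11. In clones 8, 14 and 17 they stood at −1.88, −2.435, −1.083 and −1.793. Gbp3, Gbp7, Psmb8 and Tap2 departed on both sides, at 1.88, 1.813, 2.865 and 1.593 in clones 10 and 11. Their values were −3.352, −1.64, −1.844 and −0.745 in clones 8, 14 and 17. Psmb8, a catalytic subunit of the immunoproteasome, measured 6.45 and 8.88 CPM in clones 10 and 11, against 0.0714, 0.146 and 0.217 CPM in clones 8, 14 and 17. Irf1, an interferon-inducible activator on chromosome 11, measured 63.3 and 81.6 CPM in clones 10 and 11, against 18.7, 22.2 and 15.9 CPM in clones 8, 14 and 17. Psme2, a cap subunit of the immunoproteasome that stands on the proteasome list and was its only called member, measured 71.1 and 75.6 CPM in clones 10 and 11, against 26.6, 26.9 and 24.6 CPM in clones 8, 14 and 17.

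The 4 called Gbp genes lie next to each other on chromosome 3, between positions 142530342 and 142638008 of GRCm38, and Psmb8, Tap2, H2-K1 and Tapbp all lie on chromosome 17. Gbp2 with Gbp2b, Gbp3 with Gbp7, and H2-K1 with H2-Q7 share at least 20 stretches of 31 bases, the word length used here to find sequence that one read could match in both, so how counts are divided within each pair is uncertain. In RefSeq promoters of GRCm38.p6, the 250 bases before the start held GAAA, 2 bases of any kind and GAAA again, a core of interferon response elements, on either strand in 5 of the 9 called list members with a promoter in the table and in 6 of the 18 that were not called. The same letters stood in 241 of 10052 tested genes with a promoter (2.4%) and in 13 of 280 genes called higher on any chromosome (4.64%). The 5 members were Gbp2b, Gbp2, Gbp3, Gbp7 and Irgm1. A match is a description of these letters and not of binding, and promoters were found for 280 of 383 genes called higher, 57 of 116 called lower and 10052 of 13378 tested. The upstream sequences of 3 members are printed 5′ to 3′, cut where the first annotated exon starts, because they belong to the called Gbp cluster and carry the match. Capitals mark it, here in its reverse form. They are Gbp2b (chr3:142594597-142594846, plus strand), Gbp3 (chr3:142559794-142560025, plus strand) and Gbp7 (chr3:142530086-142530335, plus strand).
Gbp2b: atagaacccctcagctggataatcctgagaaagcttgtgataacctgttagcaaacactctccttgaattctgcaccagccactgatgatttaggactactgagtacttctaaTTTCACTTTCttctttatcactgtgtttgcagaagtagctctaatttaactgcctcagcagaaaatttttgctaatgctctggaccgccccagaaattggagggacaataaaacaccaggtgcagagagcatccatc
Gbp3: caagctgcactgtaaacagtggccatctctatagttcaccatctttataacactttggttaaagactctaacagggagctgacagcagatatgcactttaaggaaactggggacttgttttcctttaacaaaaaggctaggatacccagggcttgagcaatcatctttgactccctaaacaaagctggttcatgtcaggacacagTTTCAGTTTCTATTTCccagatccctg
Gbp7: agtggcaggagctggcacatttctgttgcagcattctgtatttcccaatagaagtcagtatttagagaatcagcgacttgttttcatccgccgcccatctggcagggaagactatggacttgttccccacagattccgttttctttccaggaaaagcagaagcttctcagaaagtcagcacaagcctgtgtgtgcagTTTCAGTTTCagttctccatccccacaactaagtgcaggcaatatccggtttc
The match began 137 bases before the RefSeq start in Gbp2b and 53 bases before it in Gbp7. In Gbp3 overlapping matches began as near as 39 bases before the RefSeq start. The printed Gbp3 sequence ends 18 bases short of that start, where the first annotated exon begins.

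Collagens and other matrix genes formed the longest group of called members. Fibrillar collagens are secreted by mesenchymal cells, while type IV collagen and laminins build the basement membrane that embryonic cells also make. Of 46 genes of the collagen and laminin list that passed the filter, 13 were called higher and none lower. Among them were the collagen genes Col1a1, Col1a2, Col3a1, Col4a2, Col4a5, Col5a1, Col5a2, Col6a2 and Col12a1, the glycoprotein gene Tnc, and Serpinh1 and Timp2, which act on collagen folding and matrix breakdown. Outside chromosomes 8 and 11, 10 of 39 were called higher, beside 2.71% of all genes there. With the filter set on clones 1, 4, 6 and 13, these were 5 of 32. The other 5 genes called did not pass that filter. Of the 39, 23 were higher in all 6 pairs and 6 lower, beside 24.2% and 28.4% of all genes there. Col1a2 measured 8.76 and 7.9 CPM in clones 10 and 11, against 0.286, 0.292 and 0.0718 CPM in clones 8, 14 and 17. Col1a1 on chromosome 11 measured 33.4 and 42.5 CPM in clones 10 and 11, against 1.07, 0.656 and 0.718 CPM in clones 8, 14 and 17. Tnc, tenascin C, measured 4.64 and 9.85 CPM in clones 10 and 11, and its levels of 0.0714, 0.0729 and 0 CPM in clones 8, 14 and 17 stood for 1 count or none. Its closest pair, clone 10 over clone 14, gave a ratio of 63.6, but with an interval of 11 to 2550. Serpinh1, the collagen chaperone, moved at a higher level, with 60.5 and 51.3 CPM in clones 10 and 11, against 15.1, 11.7 and 18.5 CPM in clones 8, 14 and 17. The basement membrane genes were more divided: of 16 that passed, 6 were higher in all 6 pairs and 4 lower.

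The collagens also stand on the list of fibroblast or feeder markers, whose summed level was 62.6 and 70.9 CPM in clones 10 and 11, against 10.6 to 12.6 CPM in clones 8, 14 and 17. Of its 10 markers, 3 were called higher, all of them collagens (Col1a1, Col1a2 and Col3a1). Pdgfrb and Thy1 were higher in all 6 pairs without a call. Pdgfrb, a receptor of mesenchymal cells, measured 5.79 and 4.61 CPM in clones 10 and 11, against 2.57, 1.6 and 2.87 CPM in clones 8, 14 and 17. Thy1, a surface glycoprotein, measured 7.39 and 7.54 CPM in clones 10 and 11, against 4.35, 6.27 and 5.39 CPM in clones 8, 14 and 17. Lum was at 0 in all 5 clones. Dcn, Postn and Twist2 were under 1 CPM in all 5, Postn and Twist2 being higher in all 6 pairs. Twist1 overlapped, with 2.32 and 1.96 CPM in clones 10 and 11 and 1.93, 2.48 and 3.23 CPM in clones 8, 14 and 17. In bulk RNA, more cells of a type and more RNA per cell cannot be told apart, and what part the marker levels have in the collagen result was not tested.

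Some genes of contraction and of the actin cytoskeleton were called higher in clones 10 and 11. Smooth muscle actin, transgelin and calponin are contractile genes under serum response factor, which binds a sequence called the CArG box. Of 35 listed genes that passed, 10 were called higher and none lower, made up of 5 of 9 contractile genes (Acta1, Acta2, Tagln, Cnn1 and Myl9) and 5 of 23 actin filament genes (Tpm1, Flnc, Cald1, Zyx and Fhl2). Of the 3 genes of the serum response factor system that passed, none was called. Outside chromosomes 8 and 11 the list had a median difference of 0.6, and 19 of 30 members were higher in all 6 pairs against 1 lower. Of the 30, 9 were called higher, beside 2.71% of all genes there. Among all those genes, 24.2% were higher in all 6 pairs and 28.4% lower. Tagln, transgelin, measured 36.8 and 54.4 CPM in clones 10 and 11, against 2.28, 3.28 and 1.65 CPM in clones 8, 14 and 17. Acta2, smooth muscle actin, differed between the first pair itself, with 4.35 CPM in clone 10 and 13 CPM in clone 11, against 0.143, 0.438 and 0 CPM in clones 8, 14 and 17. Flnc, filamin C, which crosslinks actin, measured 128 and 170 CPM in clones 10 and 11, against 22.7, 24 and 24.6 CPM in clones 8, 14 and 17. Tpm1, tropomyosin 1, had the highest level in CPM among the called members and a smaller margin, with 348 and 402 CPM in clones 10 and 11, against 117, 161 and 116 CPM in clones 8, 14 and 17. Of the 6 smooth muscle markers, Acta2 and Cnn1 were called higher, and the other 4 did not pass the filter. Myocd, Myh11 and Lmod1 were higher in all 6 pairs at low levels, the highest being 1.26 CPM of Myh11 and 1.12 CPM of Lmod1 in clone 11, and Actg2 was at 0.14 CPM or less in all 5 clones. The summed smooth muscle markers came to 11.7 and 25.8 CPM in clones 10 and 11, against 0.934 to 1.75 CPM in clones 8, 14 and 17, and their part in the list's result was not tested.

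The CArG box, on either strand, stood in the 250 upstream bases of 3 of the 9 called members with a promoter and of 6 of the 23 that were not called. It stood in 109 of 10052 tested genes (1.08%) and in 11 of 280 genes called higher (3.93%). Acta1, skeletal actin, measured 4.56 and 6.92 CPM in clones 10 and 11, against 0.0714, 0.729 and 0.216 CPM in clones 8, 14 and 17. Myl9, a regulatory myosin light chain, measured 4.78 and 6.01 CPM in clones 10 and 11, against 0.571, 1.9 and 0.862 CPM in clones 8, 14 and 17. Both are shown as called members that carry the box, in capitals. The upstream bases are from RefSeq, with Myl9 at chr2:156775214-156775419 on the plus strand, and Acta1 at chr8:123894776-123895025 on the minus strand, both in GRCm38.p6.
Myl9: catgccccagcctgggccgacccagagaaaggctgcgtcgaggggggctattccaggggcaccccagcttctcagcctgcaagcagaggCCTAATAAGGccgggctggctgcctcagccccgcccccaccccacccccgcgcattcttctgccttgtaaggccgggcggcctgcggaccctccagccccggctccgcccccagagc
Acta1: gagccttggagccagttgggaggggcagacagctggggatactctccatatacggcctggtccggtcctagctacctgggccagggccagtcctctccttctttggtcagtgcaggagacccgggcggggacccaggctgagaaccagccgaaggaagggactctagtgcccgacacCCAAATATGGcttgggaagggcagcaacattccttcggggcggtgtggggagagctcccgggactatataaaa
Fhl2, a LIM domain protein, was the third called member with the box, at 5.36 and 7.9 CPM in clones 10 and 11, against 0.428, 0.219 and 0.0718 CPM in clones 8, 14 and 17. For another motif, TGANTCA of the AP-1 family on either strand, 17 of 280 genes called higher held a match (6.07%), beside 382 of 10052 tested (3.8%).

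Simple epithelial keratins pair into the filaments of early embryonic epithelia. Of 23 genes of the keratin and epithelium list that passed, 7 were called higher and none lower. They were the keratins Krt7, Krt8, Krt18 and Krt19, and the junction genes Cldn7, Dsp and Dsc2. Krt19 and Cldn7 lie on chromosome 11. Outside chromosomes 8 and 11, 5 of 18 list members were called higher, beside 2.71% of all genes there. Krt8 measured 278 CPM in both clones 10 and 11, against 19.13, 25.4 and 19.2 CPM in clones 8, 14 and 17. Its partner Krt18 had 167 and 182 CPM in clones 10 and 11, against 7.64, 13.2 and 6.47 CPM in clones 8, 14 and 17. Clone 4, with 56.1 CPM of Krt8 and 38.8 CPM of Krt18, was the highest of the other 4 clones. Krt19 on chromosome 11 measured 120 and 112 CPM in clones 10 and 11, against 4.85, 9.04 and 5.17 CPM in clones 8, 14 and 17. Dsp, desmoplakin of desmosomes, measured 197 and 202 CPM in clones 10 and 11, against 32.6, 40.9 and 24.9 CPM in clones 8, 14 and 17. Keratins stand on the trophoblast list too, and of 16 trophoblast genes that passed the filter 7 were called higher and none lower. Outside chromosomes 8 and 11, 5 of 14 were called higher. The 2 lists share keratins, so their counts are not independent. Of the 5 trophoblast markers, Cdx2 and Krt7 were called higher, Gata3 overlapped between the sets, and Elf5 and Tfap2a were at 1.04 CPM or less in all 5 clones. Their sum was 12 and 14.8 CPM in clones 10 and 11, against 3.44 to 6.57 CPM in clones 8, 14 and 17, and its part in the keratin levels was not tested.

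Wnt signals reach the nucleus through frizzled receptors, beta-catenin and factors of the Tcf and Lef family, and drive T, the brachyury gene of the primitive streak. Of 47 listed genes that passed, 9 were called higher and 1 lower. By role, 2 of 9 ligands were called higher (Wnt3 and Wnt4), 2 of 14 receptors (Fzd1 and Fzd2), 2 of 11 transducers (Tcf7 and Lef1) and 3 of 13 targets and inhibitors (T, Sp5 and Cdx2), while the inhibitor Sfrp1 was called lower. Wnt3, Fzd2 and Tcf7 lie on chromosome 11, and the margins of Fzd2 (1.39) and Tcf7 (1.09) pass 1 log2 unit by less than the shift of 0.45 to 0.51 of that chromosome. Of the 37 Wnt genes outside chromosomes 8 and 11, 6 were called higher, beside 2.71% of all genes there. T measured 9.2 CPM in clone 10 but 28.2 CPM in clone 11, against 0.571, 0.365 and 0.575 CPM in clones 8, 14 and 17. Wnt3, the ligand required for the streak in mouse, measured 11.2 and 14.1 CPM in clones 10 and 11, against 1.21, 1.6 and 0.934 CPM in clones 8, 14 and 17. Lef1 measured 8.36 and 9.97 CPM in clones 10 and 11, against 1.6, 1.32 and 0.82 CPM in clones 8, 14 and 17, and the other 4 clones, at 7.33 to 11.7 CPM, lay with clones 10 and 11. Wnt4 measured 8.51 and 7.08 CPM in clones 10 and 11, against 0.891, 0.998 and 0.92 CPM in clones 8, 14 and 17. It shares stretches of 31 bases with Arhgap31 and 1700037C18Rik, which were called higher too, and so do Fzd1 and Fzd2 with each other. Sfrp1, a secreted Wnt antagonist on chromosome 8, measured 35 and 25.4 CPM in clones 10 and 11, against 110.5, 80.7 and 121 CPM in clones 8, 14 and 17. The motif CTTTGAA of Tcf and Lef factors stood on either strand in 1 of 8 called members with a promoter, that of T, and in 300 of 10052 tested genes (2.98%). Outside chromosomes 8 and 11 the Wnt list had a median difference of 0.25.

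Some genes of the streak and of mesoderm were called higher. Of 17 listed that passed, 6 were called higher and none lower, which are T, Wnt3 and Cdx2 again, Hand1, Zeb2 and the receptor gene Kdr. Wnt3 and Hand1 lie on chromosome 11, and Cdx2, Zeb2 and Kdr fell below 1 log2 unit on log2(TPM + 1). Outside chromosomes 8 and 11, 4 of 13 were called higher, beside 2.71% of all genes there. Of the 13, 5 were higher in all 6 pairs and 3 lower, the lower ones being Evx1, Mesp2 and Cdx1. Of all genes there, 24.2% were higher in all 6 pairs and 28.4% lower, so the 3 lower genes are no result about the list. Eomes, which acts beside T in the streak, was higher in all 6 pairs without reaching the call, with 6.74 and 7.87 CPM in clones 10 and 11, against 2.29, 4.38 and 3.36 CPM in clones 8, 14 and 17. Mixl1 measured 0.797 and 3.08 CPM in clones 10 and 11, against 0.357, 0.365 and 0.431 CPM in clones 8, 14 and 17 and did not pass the filter. The 5 mesoderm markers summed to 18.2 and 40 CPM in clones 10 and 11, against 3.57 to 5.77 CPM in clones 8, 14 and 17, most of it T and Eomes.

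The TGF-beta and BMP families of ligands pattern the early embryo. Most members of their lists were not called. The calls in the Nodal and TGF-beta list were upward, and those in the BMP list went in both directions. Tgfb2, a TGF-beta ligand, measured 8.15 and 12.9 CPM in clones 10 and 11, against 0.571, 0.875 and 1.09 CPM in clones 8, 14 and 17. Of 30 members of the Nodal and TGF-beta list, 4 were called higher, the receptor genes Tgfbr2 and Tgfbr3 among them. The list as a whole had a median difference of 0.07. Of the 30, 13 were higher in all 6 pairs and 6 lower, Inhbb and Gdf3 among the lower ones. Of all genes outside chromosomes 8 and 11, 2.71% were called higher, 24.2% were higher in all 6 pairs and 28.4% lower. Bmp1, a protease that trims procollagens, measured 22 and 24.4 CPM in clones 10 and 11, against 3.36, 3.87 and 3.81 CPM in clones 8, 14 and 17. Bmp8b, a ligand, measured 7 and 8.52 CPM in clones 10 and 11, against 1.72, 1.7 and 1.57 CPM in clones 8, 14 and 17. Bmp4, the ligand that sustains self-renewal beside LIF in serum-free culture, went the other way, with 30.2 and 31.9 CPM in clones 10 and 11, against 89.4, 76.3 and 117 CPM in clones 8, 14 and 17.

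**Figure D2:**
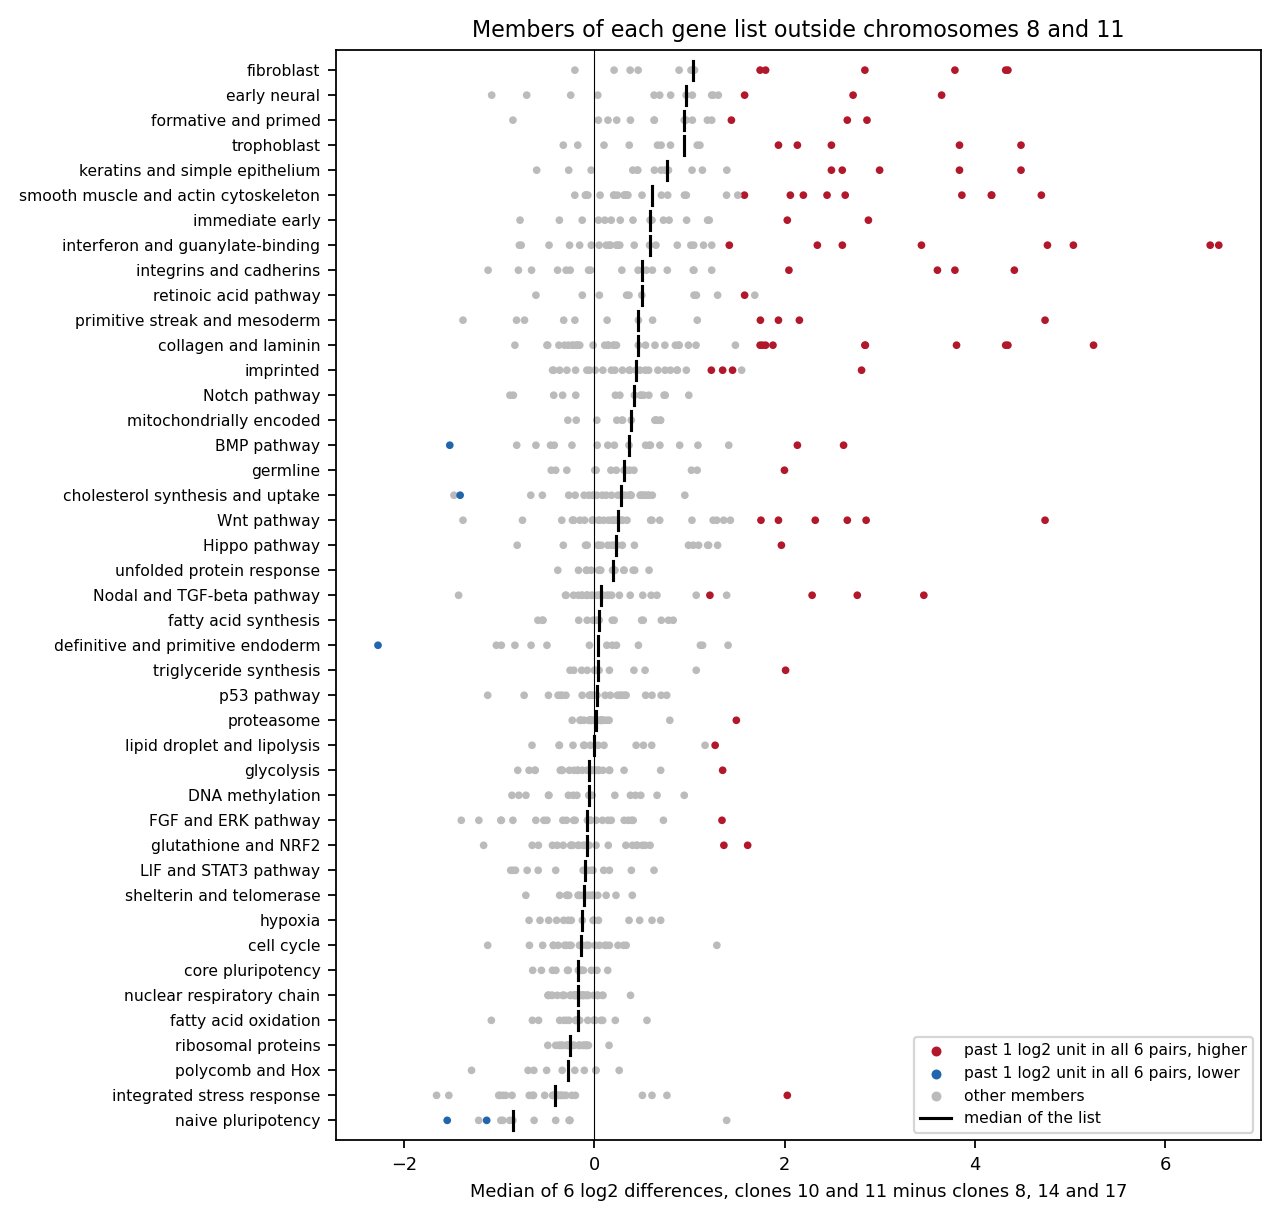
Median of the 6 log2 differences, clones 10 and 11 minus clones 8, 14 and 17, for each member outside chromosomes 8 and 11 of the lists with at least 10 members tested; black bars are list medians. The fibroblast list has the highest median (1.04, over 14 members, of which 10 pass and 3 rather than 6 are called with the filter on clones 1, 4, 6 and 13), and the naive pluripotency list the lowest (−0.86).

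Naive pluripotency genes were lower in clones 10 and 11, mostly without reaching the call, and none of the core genes was called. Of 15 naive genes, 2 were called lower, 12 were lower in all 6 pairs and 1 was higher in all 6. Of the 12, 2 lie on chromosome 8, and the other 10 were of 13, beside 28.4% of all genes outside chromosomes 8 and 11. Called lower were 2 of these 13, beside 0.915% of all genes there. The call of Nr0b1 fell below 1 log2 unit on log2(TPM + 1), and that of Tcl1 did not. Nr0b1, an orphan nuclear receptor on chromosome X, measured 69.8 and 69.3 CPM in clones 10 and 11, against 146, 153 and 170 CPM in clones 8, 14 and 17. Tcl1, a coactivator of Akt, measured 48.7 and 38.2 CPM in clones 10 and 11, against 136, 118 and 129 CPM in clones 8, 14 and 17. Esrrb, which sustains the naive network, missed the call at 382 and 369 CPM in clones 10 and 11, against 703, 654 and 716 CPM in clones 8, 14 and 17. Tfcp2l1, a factor of the same network, missed it likewise at 346 and 385 CPM in clones 10 and 11, against 718, 610 and 647 CPM in clones 8, 14 and 17. Dppa3, an oocyte and germ cell factor of the naive state, was the member that was higher, with 46.9 and 44.9 CPM in clones 10 and 11, against 17.4, 26.9 and 8.33 CPM in clones 8, 14 and 17. The other 4 clones, at 52.8 to 78.9 CPM of Dppa3, lay above both sets. Nanog measured 265 and 249 CPM in clones 10 and 11, against 326, 309 and 280 CPM in clones 8, 14 and 17. For Nanog too the other 4 clones lay above both sets, at 454 to 537 CPM. All 13 core genes passed the filter and none was called. Of the 13, 9 were lower in all 6 pairs, beside 28.4% of all genes outside chromosomes 8 and 11. Pou5f1, the Oct4 gene, measured 939 and 852 CPM in clones 10 and 11, against 1146, 1180 and 1288 CPM in clones 8, 14 and 17. Sox2, its partner, measured 250 and 236 CPM in clones 10 and 11, against 296, 301 and 288 CPM in clones 8, 14 and 17. Gapdh of glycolysis and Actb of the cytoskeleton overlapped between the sets.

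Among formative genes, which come up as the naive state ends, 13 of 15 outside chromosomes 8 and 11 were higher in all 6 pairs. Pou3f1, Zic5 and Lef1 were called. Of all genes there, 24.2% were higher in all 6 pairs and 2.71% were called higher. For Lef1 the other 4 clones lay with clones 10 and 11, as given above. Pou3f1, a POU factor of the epiblast, measured 25.9 and 31.9 CPM in clones 10 and 11, against 4, 4.52 and 2.95 CPM in clones 8, 14 and 17. Zic5 measured 24.3 and 22.6 CPM in clones 10 and 11, against 11, 8.53 and 6.9 CPM in clones 8, 14 and 17, and the other 4 clones, at 20.5 to 30.2 CPM, lay with clones 10 and 11. Dnmt3b, the de novo methyltransferase of the epiblast, measured 373 and 460 CPM in clones 10 and 11, against 204, 227 and 212 CPM in clones 8, 14 and 17. Its smallest difference of 0.71 log2 units kept it below the call. No DNA methylation gene of 17 was called, and none of 19 in the LIF and STAT3 pathway. Of 15 genes of the early neural list outside chromosomes 8 and 11, 3 were called higher and none lower, beside 2.71% and 0.915% of all genes there. Of the 15, 11 were higher in all 6 pairs and 2 lower, beside 24.2% and 28.4% of all genes there. The neural progenitor gene Nes, nestin, measured 106 and 98.7 CPM in clones 10 and 11, against 15.3, 19.8 and 14.4 CPM in clones 8, 14 and 17. Sox1 on chromosome 8, an early neural plate factor, was called lower, at 0.725 and 0.28 CPM in clones 10 and 11, against 5.28, 2.92 and 7.11 CPM in clones 8, 14 and 17. Of the 5 neural markers, Sox1 alone was called. Their sums overlapped, with 110 to 146 CPM in clones 10 and 11 and 114 to 133 CPM in clones 8, 14 and 17.

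The title of the series points to metabolic and telomere genes. No list of lipid, cholesterol, glycolysis, respiratory chain or shelterin and telomerase genes had more than 1 call in either direction outside chromosomes 8 and 11. Of all genes there, 2.71% were called higher and 0.915% lower, and the single calls are no result about those lists. Plin2, the coat protein of lipid droplets, measured 42.2 and 44.7 CPM in clones 10 and 11, against 17.3, 19 and 17.6 CPM in clones 8, 14 and 17. It was the only called gene of 14 in the lipid droplet and lipolysis list. Fabp5, a fatty acid carrier, measured 35.1 and 30.7 CPM in clones 10 and 11, against 14.1, 14.5 and 12.5 CPM in clones 8, 14 and 17. It shares sequence with the gene model Gm6166, which was called too. Gpat2, a glycerol phosphate acyltransferase, measured 4.64 and 6.22 CPM in clones 10 and 11, against 1.43, 0.583 and 1.44 CPM in clones 8, 14 and 17, with the other 4 clones above both sets at 9.84 to 13.3 CPM. Apoe, an apolipoprotein that carries lipid, was called lower at 344 and 310 CPM in clones 10 and 11, against 850, 801 and 1003 CPM in clones 8, 14 and 17. Slc16a3 on chromosome 11, the lactate exporter, measured 195 and 189 CPM in clones 10 and 11, against 75.7, 80.9 and 73.2 CPM in clones 8, 14 and 17. Pfkfb3, which sets fructose 2,6-bisphosphate, measured 24.5 and 27.6 CPM in clones 10 and 11, against 8.73, 10.5 and 11.1 CPM in clones 8, 14 and 17. None of 20 fatty acid synthesis genes, 22 of fatty acid oxidation, 43 of the nuclear respiratory chain or 27 of shelterin and telomerase was called. Tert, the telomerase reverse transcriptase, measured 18.3 and 16.2 CPM in clones 10 and 11, against 21.5, 21.1 and 20.8 CPM in clones 8, 14 and 17. The shelterin gene Terf1 overlapped between the sets, and Terf2, its partner on chromosome 8, measured 36.1 and 27.3 CPM in clones 10 and 11, against 42.5, 43 and 42.7 CPM in clones 8, 14 and 17. Of the Zscan4 genes of the 2-cell-like state, Zscan4a and Zscan4d were called higher at levels of 3.29 CPM or less, share sequence with each other and are uncertain. They were the 2 genes called of 8 on the 2-cell-like list that passed, beside 2.71% of all genes outside chromosomes 8 and 11. Zscan4c measured 2.11 and 4.79 CPM in clones 10 and 11, against 1.37, 1.66 and 1.1 CPM in clones 8, 14 and 17 without a call.

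Among genes called lower outside chromosomes 8 and 11, the largest margins of named protein-coding genes included those of Cphx1, Clca3b, Dmbx1, Pkhd1, Spata31d1b, Olfr769, Sept1, Gpr83, Stmn3, Arhgef38, Abcb1a, Dnah6, Wdr64 and Reg2. Cphx1, a homeobox gene of the early embryo, measured 0.292 and 0.179 CPM in clones 10 and 11, against 6.95, 3.81 and 7.27 CPM in clones 8, 14 and 17. The other 4 clones did not take 1 side in Cphx1, with 0.108 and 0.167 CPM in clones 1 and 13 and 5.11 and 6.21 CPM in clones 4 and 6. Sept1, a septin, had more counts, with 41.1 and 39.8 CPM in clones 10 and 11, against 209, 146 and 221 CPM in clones 8, 14 and 17. Abcb1a, a drug efflux pump, measured 16 and 15.2 CPM in clones 10 and 11, against 61.5, 52.8 and 58.1 CPM in clones 8, 14 and 17. In Abcb1a the other 4 clones, at 15 to 23.6 CPM, lay near clones 10 and 11.

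Many genes called lower shared transcript sequence with each other. Of the 116 genes called lower on any chromosome, 46 (39.7%) shared at least 20 stretches of 31 transcript bases with another gene called lower, beside 27 of 380 with a transcript sequence called higher (7.1%). Through such links 39 of the 116 formed 1 group, spread over 14 chromosomes, of which 30 were pseudogenes and 9 protein-coding, whereas the largest group among genes called higher had 4 members. The sum of the 39 was 1541 and 1261 CPM in clones 10 and 11, against 6282, 4503 and 4991 CPM in clones 8, 14 and 17, and 902 to 1411 CPM in the other 4 clones. The kallisto tool divides reads between transcripts that share sequence, so the 39 levels may rest on common reads and count as fewer observations than their number. The group held 5 olfactory or vomeronasal receptor genes, among them Olfr1385, of the 6 receptor genes called lower among 98 tested. Leaving out all genes that shared such stretches, 61 genes were called lower and 289 higher outside chromosomes 8 and 11.

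**Figure D3:**
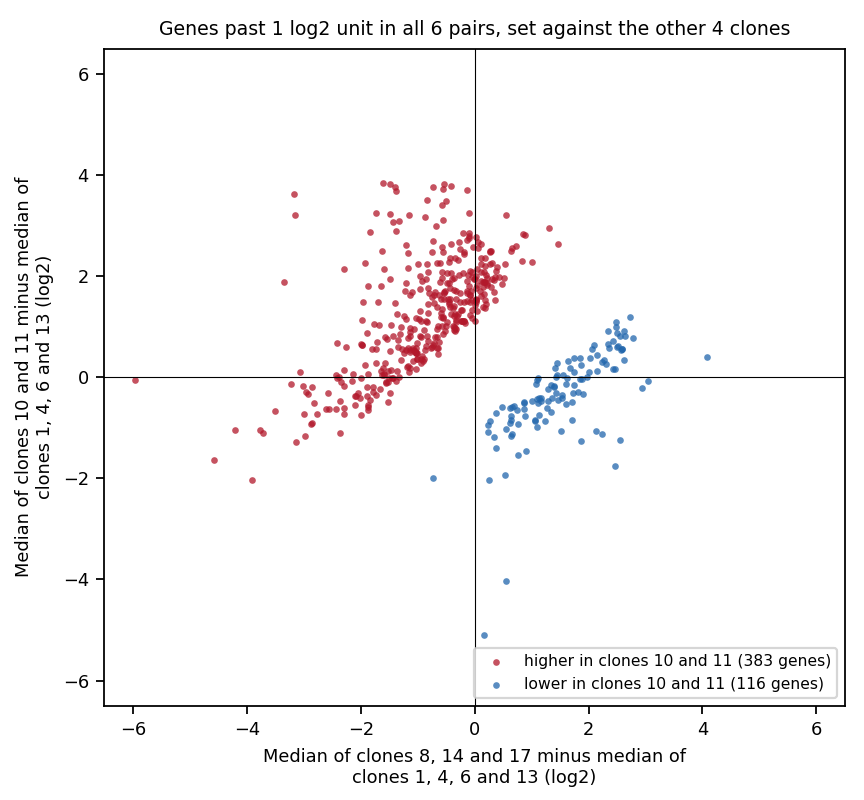
Each gene past 1 log2 unit in all 6 pairs on any chromosome, with the median of clones 10 and 11 (vertical axis) and the median of clones 8, 14 and 17 (horizontal axis) both taken relative to the median of clones 1, 4, 6 and 13, in log2 units. Genes higher in clones 10 and 11 (383, red) spread along both axes, and genes lower there (116, blue) lie mostly to the right, where clones 8, 14 and 17 are the ones above the other 4.

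The other 4 clones lay on different sides for the 2 directions. Of the 314 genes called higher outside chromosomes 8 and 11, clones 10 and 11 were at least 1 log2 unit above all 4 other clones in 132, and clones 8, 14 and 17 at least 1 unit below all 4 in 55. The median of the 4 was nearer to clones 10 and 11 in 112 of the 314 and nearer to clones 8, 14 and 17 in 202. Of the 106 genes called lower, clones 10 and 11 were at least 1 unit below all 4 in 5, and clones 8, 14 and 17 at least 1 unit above all 4 in 50, with the median nearer to clones 10 and 11 in 85. Krt8, Tagln and Prss23 were mainly raised in clones 10 and 11 relative to the other 4 clones. At Usp26, Lef1 and Zic5, clones 8, 14 and 17 lay below the other 4. Csf1 and Tnc departed on both sides. Against the median of the 4, they stood at 3.69 and 3.24 log2 units in clones 10 and 11. In clones 8, 14 and 17 they stood at −1.37 and −1.73. Irf1 was also below the 4 in clones 8, 14 and 17, but it lies on chromosome 11 and is to be read beside that chromosome's shift.

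Chromosome 11 was higher as a whole in clones 10 and 11. Over its 1073 tested genes the median difference was 0.47 log2 units, between 0.45 and 0.51 in the 6 clone pairs, while the medians of the 18 other chromosomes apart from 8 lay between −0.07 and 0.05. Of its genes, 823 were higher in all 6 pairs (76.7%) and 40 lower (3.73%). In each of the 12 windows of 10 Mb with at least 20 genes the median lay between 0.41 and 0.54, so the difference ran along the chromosome. Relative to the median of clones 1, 4, 6 and 13, chromosome 11 stood at −0.05 and −0.04 in clones 10 and 11, and at −0.54, −0.49 and −0.52 in clones 8, 14 and 17. DNA copy number was not measured.

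**Figure D4:**
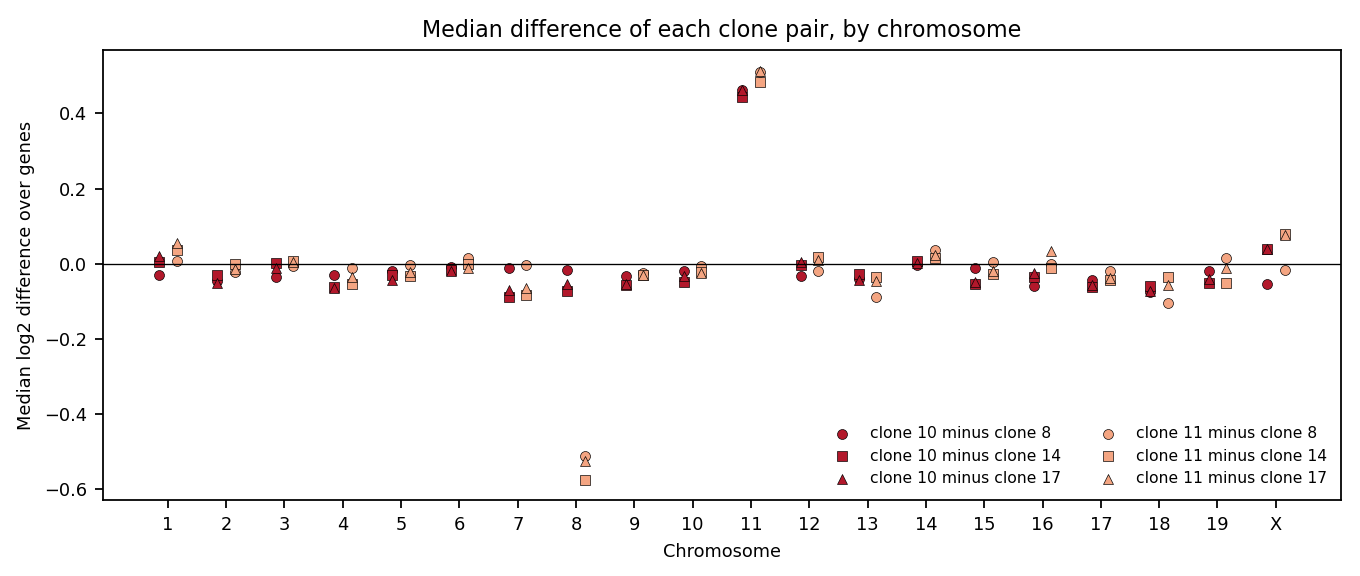
Median over genes of the log2 difference in each of the 6 clone pairs, for chromosomes 1 to 19 and X; dark points are pairs with clone 10, light points pairs with clone 11. All 6 pairs lie at 0.45 to 0.51 on chromosome 11, and on chromosome 8 the pairs with clone 11 lie at −0.51 to −0.58 while those with clone 10 lie at −0.02 to −0.07.

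On chromosome 11, 61 genes were called higher (5.68%) and 2 lower (0.186%). With each pair's chromosome median subtracted, an alternative chosen after seeing the data, 25 were higher and 5 lower. The largest margins upward were those of Col1a1, Krt19, Myh3, Alox15 and Igfbp3. Igfbp3, a binding protein of insulin-like growth factors, measured 146 and 179 CPM in clones 10 and 11, against 17.8, 19.7 and 19.4 CPM in clones 8, 14 and 17. Myh3, embryonic myosin heavy chain, measured 11 and 10.5 CPM in clones 10 and 11, against 0.646, 1.18 and 1.08 CPM in clones 8, 14 and 17, and the other 4 clones, at 7.76 to 10.9 CPM, lay with clones 10 and 11. Alox15, a lipoxygenase, measured 7.24 and 11.7 CPM in clones 10 and 11, against 0.571, 0.802 and 0.718 CPM in clones 8, 14 and 17. The 2 genes called lower were Olfr1385, of the group that shares sequence, and Ebf1, a transcription factor of B cell and mesenchymal lineages, at 4.41 and 2.47 CPM in clones 10 and 11, against 14.1, 9.29 and 12.6 CPM in clones 8, 14 and 17. Adcy1, an adenylyl cyclase, came next at 27.9 and 26.1 CPM in clones 10 and 11, against 52.5, 59.4 and 53.2 CPM in clones 8, 14 and 17. Ntn1, the guidance cue netrin 1, followed at 93.8 and 71.8 CPM in clones 10 and 11, against 176, 155 and 236 CPM in clones 8, 14 and 17. Rmnd5b followed at 61.8 and 65.1 CPM in clones 10 and 11, against 97.1, 90.5 and 100 CPM in clones 8, 14 and 17. None of these 3 was called.

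**Figure D5:**
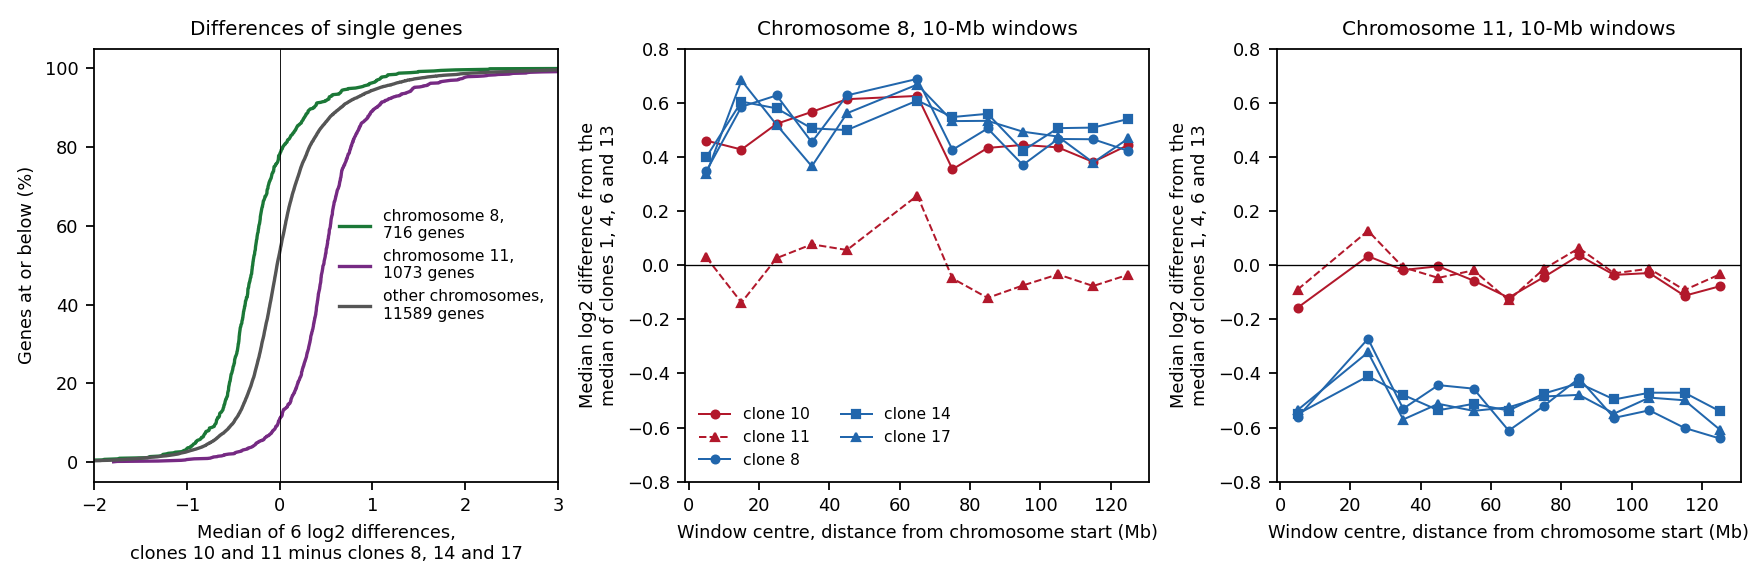
Left, share of genes at or below each difference on chromosomes 8 and 11 and elsewhere. Middle and right, median log2 difference of each clone from the median of clones 1, 4, 6 and 13 in windows of 10 Mb with at least 20 genes: clone 10 (red circles) runs with clones 8, 14 and 17 (blue) along chromosome 8 and with clone 11 (red triangles) along chromosome 11.

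Chromosome 8 divided the first set. Its median difference of −0.29 over 716 genes came from clone 11, whose 3 pairs gave −0.51 to −0.58, whereas the 3 pairs of clone 10 gave −0.02 to −0.07. Without clone 10 the median was −0.53 and without clone 11 it was −0.05. Relative to clones 1, 4, 6 and 13, the chromosome stood at 0.44 in clone 10 and −0.04 in clone 11, against 0.49, 0.53 and 0.51 in clones 8, 14 and 17. Clones 10 and 11 were therefore not alike on this chromosome: 19 of its genes were at least 1 log2 unit higher in clone 10 than in clone 11 and 0 lower, and the median size of their difference was 0.48, beside 0.16 outside chromosomes 8 and 11. Over all chromosomes clones 10 and 11 were at least 1 log2 unit apart in 2% of genes, and clones 8, 14 and 17 spanned at least 1 unit in 3.98%. Of 716 genes, 8 were called higher (1.12%) and 8 lower (1.12%), 69 were higher in all 6 pairs (9.64%) and 287 lower (40.1%). Without clone 10, 41 were called lower, and the higher count was 13 without clone 11, 13 without clone 8 and 19 without clone 14.

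The genes of chromosome 8 with the largest margins were Acta1, Pdlim3, Sdr42e1, Col4a2 and Tmem59l upward and Nkx6-3, Sox1, Zmat4, Exoc3l and Zfp827 downward. Col4a2, a chain of basement membrane collagen, measured 46.4 and 38.8 CPM in clones 10 and 11, against 11.6, 16.3 and 16.5 CPM in clones 8, 14 and 17. Pdlim3, a protein of the actin-anchoring Z line, measured 3.33 and 3 CPM in clones 10 and 11, against 0.571, 0.51 and 0.575 CPM in clones 8, 14 and 17. Nkx6-3, a homeobox gene, measured 0.435 and 0.769 CPM in clones 10 and 11, against 9.92, 6.34 and 18.1 CPM in clones 8, 14 and 17. Zmat4, a zinc finger gene, measured 9.49 and 4.27 CPM in clones 10 and 11, against 30, 27.1 and 33.1 CPM in clones 8, 14 and 17. Exoc3l, an exocyst-like protein, measured 18.5 and 14.7 CPM in clones 10 and 11, against 49, 49.4 and 75.7 CPM in clones 8, 14 and 17. The naive factors Klf2 and Zfp42 lie on this chromosome too and are to be read beside its shift. Klf2 had 142 and 119 CPM in clones 10 and 11, against 176, 207 and 208 CPM in clones 8, 14 and 17. Zfp42 had 710 and 488 CPM in clones 10 and 11, against 831, 822 and 745 CPM in clones 8, 14 and 17.

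Promoters of the called genes had a lower CpG content than those of all tested genes; no test was made. The ratio of observed to expected CpG in the 250 upstream bases had a median of 0.6 in 280 genes called higher and 0.55 in 57 called lower, against 0.73 in all 10052, and it was under 0.4 in 27.5%, 38.6% and 15.7% of them. The median GC content was 59.6% and 57.2%, against 60%. Whether this goes with the low and variable levels of many called genes was not tested.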

How the data were processed

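RNA of 9 E14 clones was sequenced with a stranded mRNA kit, per the labels' protocols. Per the submitters' processing notes, CASAVA 1.8, FastQC, Trimmomatic 0.33 and kallisto 0.43.1 were used, with mm10 and GRCm38 as builds. The authors deposited, for each clone, estimated counts and TPM per transcript, per the file headers. Estimated counts, which need not be whole, were summed here to 35580 genes by the GENCODE annotation of GRCm38. Of each of the 5 libraries, 0.67% to 0.773% of the counts lay on transcripts with no match there and were left out. Effective library sizes came from TMM (edgeR 4.0.16 in R 4.3.3), log2 CPM used a prior count of 2, and genes averaging 1 CPM or more over the 9 clones were kept. Intervals of ratios are exact and cover counting error only. Python 3.11.15 with pandas 2.3.3 was used for the rest, and the calling of genes was tested on simulated data.

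The labels give no clone a group beyond its name, so each clone is 1 sample, and no test was made. The clone sets, the 47 gene lists and the naming rule were chosen with earlier results of these data known. Named were the 15 protein-coding genes with an assigned name of largest margin in each direction outside chromosomes 8 and 11, the 5 such genes on each of chromosomes 8 and 11, up to 4 members of largest margin per list and direction, all called members of lists with up to 10 called, and a few pluripotency, lipid and telomere genes. H2-Q7, Eomes, Mixl1, Klf2, Zfp42, Gata3, Twist1, Pdgfrb, Thy1, Twist2, Lmod1, Evx1, Mesp2, Cdx1, Ddx3y, Uty, the markers at or near 0, the further collagen and laminin list members, and genes named for shared sequence were chosen after their values were seen. Some genes that the rule picked are not reported here. Alternatives were another scaling, with DESeq2 1.42.0 size factors, other filters, prior counts and minimum sizes, log2(TPM + 1), and leaving out each clone in turn.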

Additional observations from a re-analysis of the deposited data

How the results depend on the processing

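No paired analysis was possible because each clone is a single library, the labels pair no clones, and the values come from no test. Scaling by DESeq2 size factors or by TMM without chromosomes 8 and 11, a prior count of 0.5, and a filter on the 5 clones moved no count or median beyond 1.5 times or the clones' spread. Outside chromosomes 8 and 11, the 314 genes higher became 483 with no filter, 117 with a mean of at least 5 CPM, 165 on log2(TPM + 1), 765 at a minimum of 0.5 log2 units and 76 at 2 units. The 106 genes lower became 51 on log2(TPM + 1), 448 at 0.5 units, 11 at 2 units, 66 among protein-coding genes and 61 without genes that share 31-base stretches. On chromosome 8, the 8 genes higher became 18 with no filter, 2 at 5 CPM, 3 on log2(TPM + 1), 30 at 0.5 units, 3 at 2 units, 5 with the filter on clones 1, 4, 6 and 13, and 18 with the chromosome median subtracted. The 8 genes lower there became 5 at 5 CPM, 38 at 0.5 units and 1 at 2 units. On chromosome 11, the 61 genes higher became 32 at 5 CPM, 39 on log2(TPM + 1), 234 at 0.5 units, 16 at 2 units and 25 with the chromosome median subtracted. The 2 genes lower became 1 on log2(TPM + 1), 6 at 0.5 units, 0 at 2 units, 1 without shared stretches and 5 with the median subtracted. The median of chromosome 11 was 0.41 with no filter and 0.52 on log2(TPM + 1). The filters and minimum sizes change which genes can be counted, and log2(TPM + 1) shrinks differences of low genes; for the rest the cause was not tested. The filter on clones 1, 4, 6 and 13, the shared stretches and the subtracted median were chosen after seeing the data.

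Leaving out 1 clone gave 342 to 514 genes higher and 107 to 232 lower outside chromosomes 8 and 11, 10 to 19 higher and 8 to 41 lower on chromosome 8, and 68 to 91 higher and 2 to 5 lower on chromosome 11. Fewer clone pairs then had to pass, so apart from the renewed filter and scaling these counts could only stay or rise. They are not a spread around the main counts. The higher count outside was 514 without clone 10, and the lower count 232 without clone 10, 165 without clone 11 and 182 without clone 14. On chromosome 8, 13 were higher without clone 11, 13 without clone 8 and 19 without clone 14, and 41 were lower without clone 10. On chromosome 11, 5 were lower without clone 10. The median of chromosome 8 ranged from −0.53 to −0.05 and that of chromosome 11 from 0.46 to 0.5. Of 125 called genes that the naming rule picked, all kept their direction under the other scalings, prior count and log2(TPM + 1). Of these, 34, Tap2, Plin2, Tnc, Nr0b1, Cdx2 and Pfkfb3 among them, fell below 1 log2 unit on log2(TPM + 1). The direction of all 125 also held without each clone in turn. The pairs left had already passed in the call, so apart from the new scaling that outcome was fixed in advance. With 1 library a clone, levels under about 0.2 CPM rest on 3 counts or fewer, and the spread between cultures of a clone is unknown.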

Other observations

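Single genes of further lists were called. Of 31 imprinted genes that passed the filter, 4 were called higher in clones 10 and 11 and none lower. These were 4 of 29 outside chromosomes 8 and 11, beside 2.71% of all genes there. Nnat, the paternally expressed neuronatin gene, measured 30.5 and 34.1 CPM in clones 10 and 11, against 3.43, 4.88 and 4.6 CPM in clones 8, 14 and 17, with the other 4 clones in between at 8.99 to 11.2 CPM. Among immediate early genes outside chromosomes 8 and 11, 2 of 17 were called higher, and 1 of 16 with the filter set on clones 1, 4, 6 and 13, beside 2.71% of all genes there. Fosl2, an AP-1 subunit, measured 18.1 and 21.7 CPM in clones 10 and 11, against 1.78, 2.92 and 2.73 CPM in clones 8, 14 and 17. Among integrins, cadherins and related surface genes outside chromosomes 8 and 11, 4 of 20 were called higher, but 1 of 16 with that filter; the other 3 genes called did not pass it. Cd44, the hyaluronan receptor, measured 3.91 and 5.52 CPM in clones 10 and 11, against 0.143, 0.146 and 0.359 CPM in clones 8, 14 and 17, and 0.559 CPM or less in the other 4 clones. Itga3, an integrin subunit that binds laminin, measured 158 and 181 CPM in clones 10 and 11, against 52.8, 55 and 68.5 CPM in clones 8, 14 and 17, and lies on chromosome 11, which is shifted as a whole.

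Other lists leaned to 1 side with few or no calls. Their counts are to be read beside all genes outside chromosomes 8 and 11. Of these, 24.2% were higher in all 6 pairs and 28.4% lower. Of 29 ribosomal protein genes outside chromosomes 8 and 11, 21 were lower in all 6 pairs and 0 higher, with a median of −0.26, and of 13 mitochondrially encoded genes 7 were higher and 0 lower, with a median of 0.39. Of 31 genes of cholesterol synthesis and uptake, 17 were higher in all 6 pairs and 5 lower, Apoe among the lower ones.

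Clone 10 stood apart from clone 11 on chromosome Y as well as on chromosome 8. Ddx3y measured 6.01 CPM in clone 10 but 104 CPM in clone 11, against 78.7, 72.3 and 83.6 CPM in clones 8, 14 and 17. Uty measured 3.08 CPM in clone 10 but 41.5 CPM in clone 11, against 47.1, 38.6 and 45.1 CPM in clones 8, 14 and 17.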
